A study of Mus musculus with 34 samples.

Results

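The genes described here are 10 that are known as outputs and brakes of the RAS to ERK kinase cascade: Phlda1, Dusp4, Dusp5, Dusp6, Spry2, Spry4, Spred1, Spred2, Etv4 and Etv5. Members were taken as every non-control probe on the array whose gene name is one of these symbols, whatever its level. This gave 16 of 41174 probes, which cover 9 of the 10 genes, since no probe carried the name Dusp5. Of these, 13 probes of 9 genes passed the filter on dim probes and were tested among 31544 probes. The 3 that did not pass were Spry4 A_51_P250422 and Spred1 A_51_P422996, which were well above background on 0 arrays, and Etv5 A_52_P631015, which was well above background on 1 fitted array. The accession on the array matched a RefSeq gene of the same symbol for 13 of the 16 probes. The names of Dusp4 A_51_P347333, Spred1 A_51_P119857 and Spred2 A_51_P234185 rest on the array design alone. Of the 34 array files, 33 gave the name Spred1 to A_51_P119857 and 30 gave the name Spred2 to A_51_P234185.

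The study measured mouse liver RNA on 34 arrays of 2 colours. Control livers carried no transgene and had 0 weeks on doxycycline (3 arrays). Tumors were taken from livers expressing a c-Myc transgene (7 arrays), a TGFα transgene (3 arrays) or both (3 arrays), with 0 weeks on doxycycline, the drug that turns these transgenes off. Livers of each of these 3 genotypes were also taken after 4 weeks and after 12 weeks on doxycycline (3 arrays each). Per the labels, sample RNA was labelled with Cy3 and hybridised against 1 common reference in Cy5, a pool of C57BL/6 livers of both sexes. Each value below is log2 of sample over the reference channel. On 3 arrays, described below, that channel did not have the profile of the other arrays. The labels describe the arrays of a group as biological replicates and the tumors as single tumors from individual mice. For the sampled mice, neither strain, age and sex nor the promoter that drives the transgenes is given in the sources used here. The design set each tumor group against control and each group off the transgene against its tumors.

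ERK is the last kinase of a cascade that runs from growth factor receptors through RAS, RAF and MEK, and in liver it is a main route by which EGFR ligands such as TGFα and the receptor MET drive hepatocyte growth. Active ERK induces its own inhibitors, which is why their transcripts are widely read as a gauge of pathway output. The Dusp members are phosphatases that remove phosphate from MAP kinases, Sprouty and Spred proteins act upstream at the level of RAS and RAF, Etv4 and Etv5 are ETS transcription factors, and Phlda1 is a pleckstrin homology domain protein induced by the pathway.

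Before any comparison, 3 arrays stood apart and 1 went against its label. TGFα tumor replicates 2 and 3 and TGFα off 4 weeks replicate 1, all on 1 slide, had hepatocyte markers at the 53.6 to 66.4 percentile of the sample channel and intestine markers at the 98.5 to 99.6 percentile. On the other 31 arrays hepatocyte markers lay at the 85.3 to 99.7 percentile and intestine markers at 81.9 or below, and the reference channel of those 3 arrays differed in the same way, with hepatocyte markers at the 60.0 to 65.8 percentile against 98.8 to 99.4. They go against the label liver, were kept out of the fit, and their values are given apart. The remaining array labelled TGFα tumor, replicate 1, had a log2 ratio of 3.28 at Myc probe A_52_P108346, inside the range of the Myc tumors (1.04 to 6.25) and above every control (-1.07 to 0.17), so it is called the library labelled TGFα tumor. At that probe Myc tumor replicate 5 (1.04) and TGFα/Myc tumor replicate 3 (0.83) were the lowest of their groups, as they were at Myc probe A_52_P278549 (0.10 and 0.07). At the third Myc probe, A_51_P102096, Myc tumor replicate 5 was the highest of its group (0.43) and TGFα/Myc tumor replicate 3 (0.12) lay above replicate 1 (0.02). Neither Tgfa probe passed as higher than control in a TGFα or TGFα/Myc group. Replicate 3 of the TGFα/Myc livers off for 4 weeks correlated with the other arrays of its group at a mean r of 0.138 across probes. Only Myc tumors came from the second of the 2 scanners (replicates 2 to 7), and their scan days were theirs alone, so scanner and group cannot be told apart for those 6. The share of probes well above background ran from 43.7% to 71.8%, and no 2 arrays held the same values.

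Promoter sequence is shown for Dusp6 and Spred1, members with a probe that fell in the Myc tumors and rose once Myc was off, as the values that follow show. RefSeq promoter windows were read for 6 of the 10 genes, after windows on 1 chromosome had been left out. Statements below on the members' windows cover these 6 genes only. Each run below is the 250 bases before the gene's start on build GRCm38.p6, read 5′ to 3′ on the plus strand, at chr10:99262981-99263230 for Dusp6 and chr2:117120821-117121070 for Spred1. Capitals mark the 4-letter core bound by ETS factors, GGAA or its reverse complement TTCC.
Dusp6: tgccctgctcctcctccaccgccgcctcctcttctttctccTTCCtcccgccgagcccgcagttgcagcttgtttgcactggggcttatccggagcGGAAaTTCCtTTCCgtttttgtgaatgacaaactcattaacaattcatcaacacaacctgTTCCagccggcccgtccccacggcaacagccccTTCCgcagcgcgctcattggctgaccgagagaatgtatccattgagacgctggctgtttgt
Spred1: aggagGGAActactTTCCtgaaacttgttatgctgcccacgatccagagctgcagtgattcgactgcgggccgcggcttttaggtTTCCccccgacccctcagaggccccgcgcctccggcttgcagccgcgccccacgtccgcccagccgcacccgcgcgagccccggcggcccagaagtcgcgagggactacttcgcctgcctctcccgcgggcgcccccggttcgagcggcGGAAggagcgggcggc
The Dusp6 window held 6 such cores and the Spred1 window 4. The core is short, and 93.4% of 32851 RefSeq promoter windows of this length hold at least 1. The longer ETS word CCGGAA or TTCCGG (in 12.0% of windows), the E-box CACGTG to which Myc binds (6.02%), the AP-1 word TGANTCA (6.75%) and the CREB word TGACGTCA (1.55%), each searched on both strands, were in 0 of the members' windows.

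In the Myc tumors the members did not move as a block: Phlda1 fell 31.9-fold, Spred1 and Dusp6 fell 2.72-fold and 2.03-fold, and the Sprouty and Etv genes did not pass the test. Of the 13 member probes, 4 were lower than in control (Phlda1, Spred1 A_51_P119857, Dusp6 and Spred2 A_52_P452697) and 0 higher in limma at an adjusted p under 0.05. Over all probes, 35.4% were called in this comparison, 16.1% lower and 19.3% higher. For 3 of the 13 member probes all tumors lay below all controls, as did 10.1% of all probes. The median difference of the 13 probes was -0.12, beside 0.00 over all probes.

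With Myc off for 4 weeks, 3 member probes were higher than in the tumors and 0 lower, where 30.4% of all probes were called and 13% were called higher. Those probes were Phlda1, Spred1 A_51_P119857 and Dusp6. With Myc off for 12 weeks, 4 were higher (the same 3 genes and Spred2 A_51_P234185) and 1 was lower (Spry2 A_51_P445153), where 29.4% of all probes were called, 13.8% higher and 15.6% lower. The member medians were 0.26 and 0.23, beside 0.00 over all probes in both. The 3 comparisons of the Myc groups share the tumor or the control arrays and are not independent of each other.

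**Figure D1:**
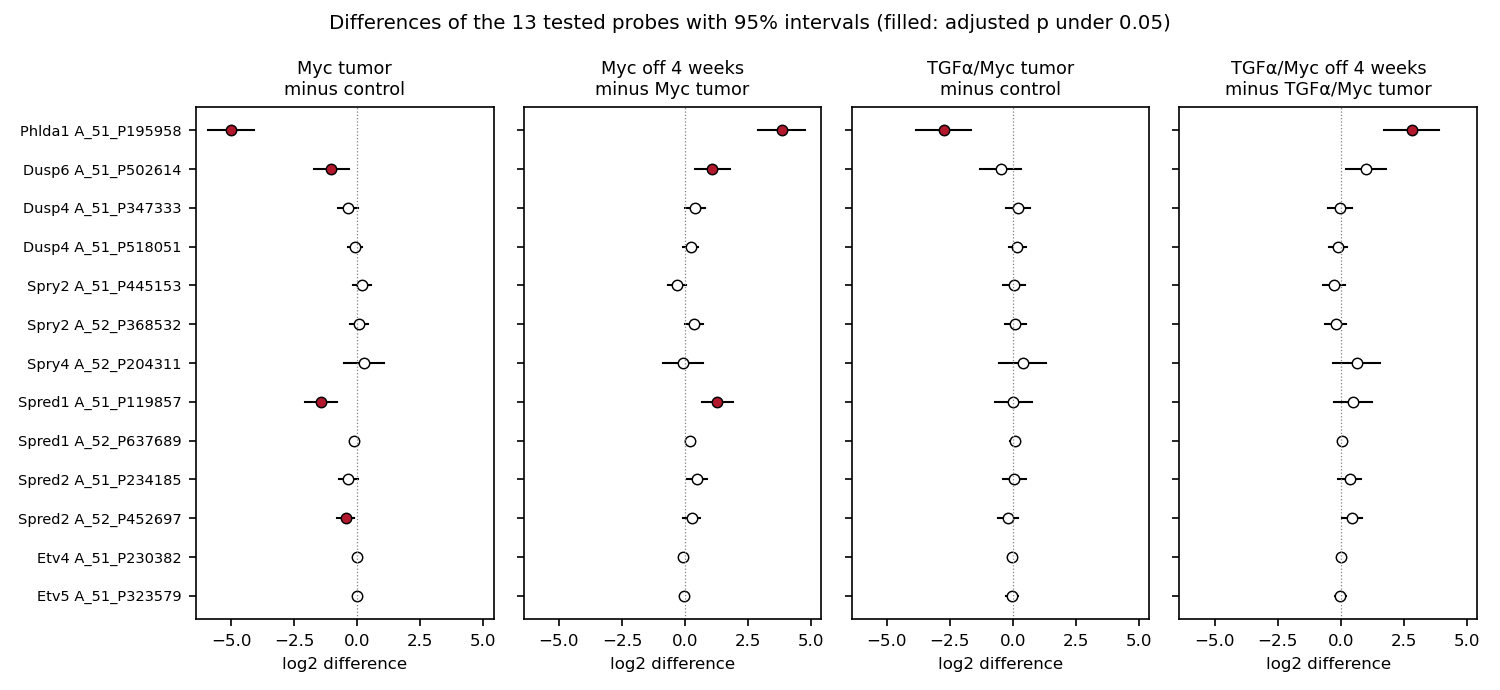
Log2 difference (x axis) of each of the 13 tested member probes (y axis) in 4 comparisons, with 95% intervals from limma; filled points have an adjusted p under 0.05. Phlda1 lies furthest from 0 in the Myc tumor panel (-5.00). The Etv4 and Etv5 intervals there stay within -0.18 to 0.19, on probes that were mostly near background.

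Phlda1 (A_51_P195958) was well above background on all 34 arrays, with a mean log2 Cy3 signal of 13.9 in control liver. Its log2 ratios were 0.16, 0.78 and 0.83 in the controls. The 7 Myc tumors ran from -5.21 to -3.55 with a median of -4.70. Every Myc tumor was below every control with a wide gap between the groups. The difference was -5.00 (SE 0.44, 95% interval -5.91 to -4.08, limma adjusted p = 1.08e-07), and it stayed past the threshold in 30 of 30 alternatives (1 of which, Aquantile scaling, leaves every ratio as it is, here and in the counts that follow), at -5.48 to -4.59. On the scanner software's own ratio the difference was -5.19.

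Phlda1 returned toward the control level when Myc was off. The livers off Myc for 4 weeks had log2 ratios of 0.12, -0.57 and -1.30, and those off for 12 weeks had -0.90, -0.40 and -0.12. All 6 were above every Myc tumor. Against the tumors the rise was 3.82 at 4 weeks (SE 0.44, limma adjusted p = 3.02e-06) and 3.93 at 12 weeks (SE 0.44, adjusted p = 1.55e-06). The 4-week rise held in 31 of 31 alternatives, and the 12-week rise in 28 of 29. The exception was scan day as a block, where Phlda1 rose by 4.91. In comparisons with the Myc tumors, a scan day or scanner block leaves Myc tumor replicate 1 alone to inform the tumor side. No p is given for those block fits. Within scan day 1, which held 1 control, 1 Myc tumor and 3 livers off Myc for 4 weeks, the Phlda1 difference was -5.48 for tumor against control and 4.11 for livers off Myc against the tumor. Within slide 1, with 1 array each, the latter was 4.82. With 1 array on a side these within-batch values rest on the spread of other arrays, and no p is given for them. Within-batch values and block fits are nonetheless among the alternatives counted here and below for called probes.

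**Figure D2:**
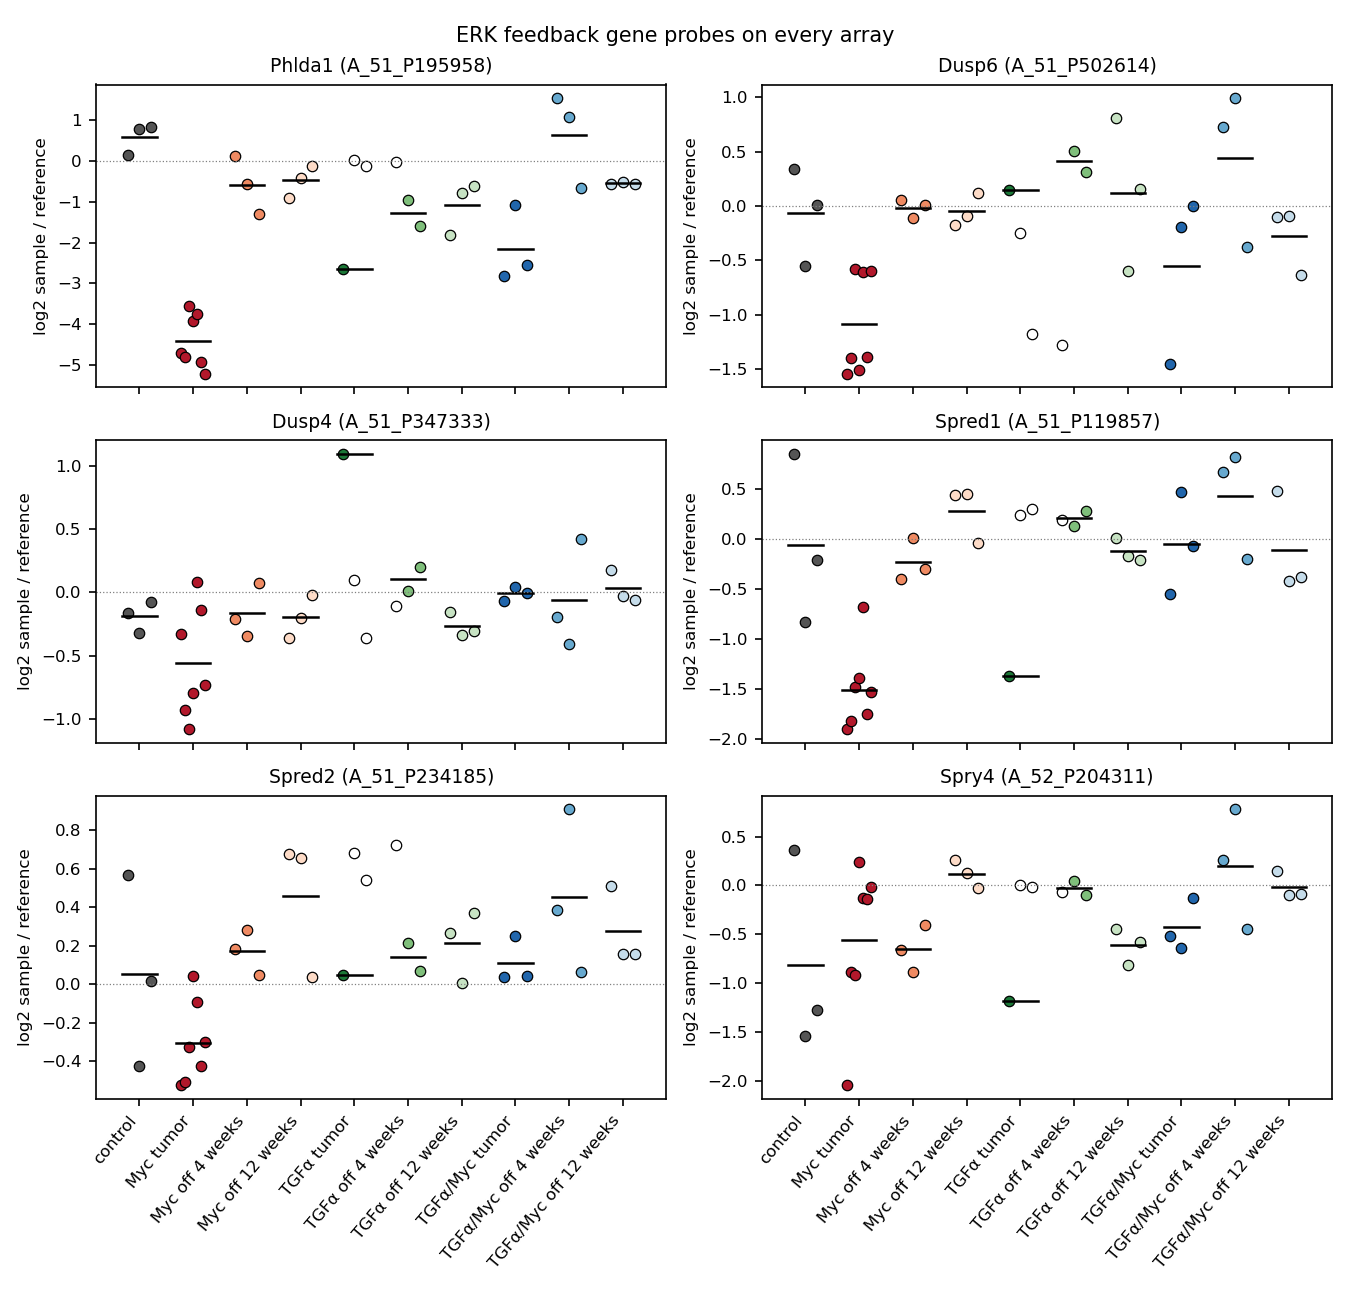
Log2 ratio of sample over reference (y axis) for 6 member probes in the 10 groups (x axis). Each dot is an array and bars are means of the fitted arrays. Open dots are the 3 arrays kept apart, whose reference channel had another profile. The 7 Phlda1 dots of the Myc tumors lie between -5.21 and -3.55, below all other fitted arrays. Spry4 spreads from -1.53 to 0.36 within the 3 controls alone.

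Among the phosphatases, Dusp6, which acts on ERK in the cytoplasm, was lower in the Myc tumors. Its log2 ratios were 0.34, -0.55 and 0.01 in control and ran from -1.54 to -0.58 in the 7 tumors, with a median of -1.39. The groups did not overlap, but the closest pair (-0.55 and -0.58) nearly touched. The difference was -1.02 (SE 0.33, 95% interval -1.71 to -0.34, limma adjusted p = 0.0185). This Dusp6 call was lost in 8 of 30 alternatives, among them without control replicate 1 (-0.82, adjusted p = 0.11), without control replicate 3 (-0.98, adjusted p = 0.0726) with median centring in place of loess (-0.61) and with scan day (-0.99, adjusted p = 0.277) or scanner (-1.48, adjusted p = 0.0599) as a block.

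The Dusp6 log2 ratios were 0.06, -0.11 and 0.01 with Myc off for 4 weeks and -0.17, -0.09 and 0.12 with Myc off for 12 weeks. All 6 livers were above all 7 tumors. Dusp6 rose by 1.08 at 4 weeks (SE 0.33, limma adjusted p = 0.0157) and by 1.04 at 12 weeks (SE 0.33, adjusted p = 0.0194). The 4-week call was lost in 6 of 31 alternatives, among them without Myc off 4 weeks replicate 1 (1.04, limma adjusted p = 0.0647) and with median centring (0.45, adjusted p = 0.673). It was also lost in the sample channel alone (0.78) and with scanner as a block (1.53, Myc tumor replicate 1 alone on the tumor side). The 12-week call was lost in 7 of 29, among them without Myc off 12 weeks replicate 2 (1.06, limma adjusted p = 0.0561) or replicate 3 (0.96, adjusted p = 0.0782). It was also lost with median centring (1.35, adjusted p = 0.163) and in the sample channel alone (0.80). Scan day (0.56) or scanner (1.49) as a block lost it too, again with 1 tumor on the tumor side.

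Dusp4, a nuclear phosphatase of MAP kinases, was read by 2 probes. At A_51_P347333 the controls had -0.17, -0.32 and -0.08 and the Myc tumors ran from -1.08 to 0.08 with a median of -0.73, so the groups overlapped and the difference did not pass the test. It passed without Myc tumor replicate 5 (-0.48, SE 0.17, limma adjusted p = 0.0328), the tumor at 0.08. Without that array Dusp4 A_51_P347333 also passed as a rise with Myc off, by 0.51 at 4 weeks and 0.47 at 12 weeks. At the second probe, A_51_P518051, 5 of the 7 Myc tumors and all 3 controls were not well above background. Without Myc tumor replicate 6, the highest tumor there (0.29), Dusp4 A_51_P518051 passed as higher in the TGFα/Myc than in the Myc tumors (0.35, adjusted p = 0.0373). Dusp5 could not be read.

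The Sprouty genes, inhibitors upstream of RAS and RAF, showed no call in the Myc tumors. Spry2 A_51_P445153 had log2 ratios of 0.03, 0.33 and 0.35 in control and from -0.00 to 1.15 in the Myc tumors with a median of 0.28. With Myc off for 12 weeks Spry2 A_51_P445153 stood at -0.17, -0.16 and 0.01 and fell by 0.52 against the tumors (SE 0.17, limma adjusted p = 0.0258), with overlapping groups. That call was lost in 8 of 28 alternatives. These were leaving out Myc off 12 weeks replicate 1 (-0.49, limma adjusted p = 0.0948) or replicate 2 (-0.50, adjusted p = 0.0929), median centring (-0.32) and the sample channel alone on 34 or 31 arrays (-0.56). The others were only the groups compared (-0.52, adjusted p = 0.122) and scan day (-0.07) or scanner (-0.31) as a block, which rest on Myc tumor replicate 1 alone. The other Spry2 probe, A_52_P368532, passed in none of the 18 comparisons.

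Spry4 was the member whose value turned with the way the ratio was made. At A_52_P204311 the controls had 0.36, -1.53 and -1.27, and the Myc tumors ran from -2.04 to 0.24 with a median of -0.13. The spread within the controls was larger than the difference of 0.26 (SE 0.38, 95% interval -0.52 to 1.05). In the sample channel alone, which does not use the reference, Spry4 was lower in the Myc tumors by limma (-0.96, adjusted p = 0.00582) and higher with Myc off for 4 weeks (1.19, adjusted p = 8.19e-04). Between group means the 4-week difference of the Spry4 ratio was -0.10, but within scan day 1 it was 1.39 (3 livers and 1 tumor) and within slide 1 it was 1.38 (1 array each). Only 3 of the 7 Myc tumors were well above background at this probe. No direction is therefore given for Spry4 in the Myc groups.

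Spred1, a membrane-bound inhibitor of RAF activation, fell and rose with Phlda1. At A_51_P119857 its log2 ratios were 0.86, -0.83 and -0.21 in control and ran from -1.90 to -0.68 in the Myc tumors, with a median of -1.52. The groups overlapped at 1 point only, Myc tumor replicate 5 (-0.68) lying above control replicate 2 (-0.83). The difference was -1.44 (SE 0.30, limma adjusted p = 7.67e-04). The Spred1 ratios were -0.40, 0.01 and -0.30 with Myc off for 4 weeks and 0.44, 0.46 and -0.04 with Myc off for 12 weeks. All 6 were above the 7 tumors, and Spred1 rose by 1.28 (SE 0.30, adjusted p = 0.00257) and by 1.79 (SE 0.30, adjusted p = 1.22e-04). The tumor call was lost in 3 of 30 alternatives, and within scan day 1, with 1 array each, the Spred1 difference was -1.07. On the scanner software's own ratio it was larger, at -2.09. The second Spred1 probe tested, A_52_P637689, was well above background on 10 of 31 fitted arrays and passed in 0 comparisons. Without Myc tumor replicate 5 Spred1 A_52_P637689 passed as higher than the Myc tumors in livers off Myc for 4 weeks (0.22, adjusted p = 0.0196) and 12 weeks (0.21, adjusted p = 0.0273) and in the TGFα/Myc tumors (0.23, adjusted p = 0.0209).

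Spred2, the closest relative of Spred1 among the members, moved less. Its probe A_51_P234185 stood at 0.57, -0.42 and 0.02 in control and from -0.52 to 0.04 in the Myc tumors with a median of -0.32, and these groups overlapped. Without control replicate 2 the difference passed (-0.60, limma adjusted p = 0.0269). With Myc off it stood at 0.19, 0.28 and 0.05 after 4 weeks and at 0.68, 0.66 and 0.04 after 12 weeks. The difference from the tumors was 0.48 at 4 weeks (SE 0.19, limma adjusted p = 0.0554) and Spred2 rose by 0.76 at 12 weeks (SE 0.19, adjusted p = 0.00323). The 4-week difference passed without Myc tumor replicate 4 (0.53, adjusted p = 0.0346) or replicate 5 (0.51, adjusted p = 0.0406). The dimmer probe A_52_P452697 was lower in the Myc tumors (limma log2 difference -0.46, SE 0.16, adjusted p = 0.0296), but 2 of the 7 tumors were well above background there. That Spred2 call was lost in 10 of 28 alternatives, including without control replicate 1 (-0.36, adjusted p = 0.156), control replicate 3 (-0.43, adjusted p = 0.113) or Myc tumor replicate 4 (-0.39, adjusted p = 0.0549).

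The ETS factors Etv4 and Etv5 did not pass the test in the Myc tumors, on probes that were mostly near background. Etv4 A_51_P230382 ran from -0.12 to 0.23 over the 31 fitted arrays and was well above background on 15 of them. Etv5 A_51_P323579 ran from -0.30 to 0.22 and was well above background on 3. Against control the Myc tumor difference was -0.00 for Etv4 (95% interval -0.13 to 0.13) and 0.01 for Etv5 (95% interval -0.18 to 0.19). The intervals bound the measured ratio only. On the scanner software's own ratio the fitted arrays ran wider, from -1.27 to 0.99 for Etv4 and from -1.20 to 1.85 for Etv5 at these probes.

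**Figure D3:**
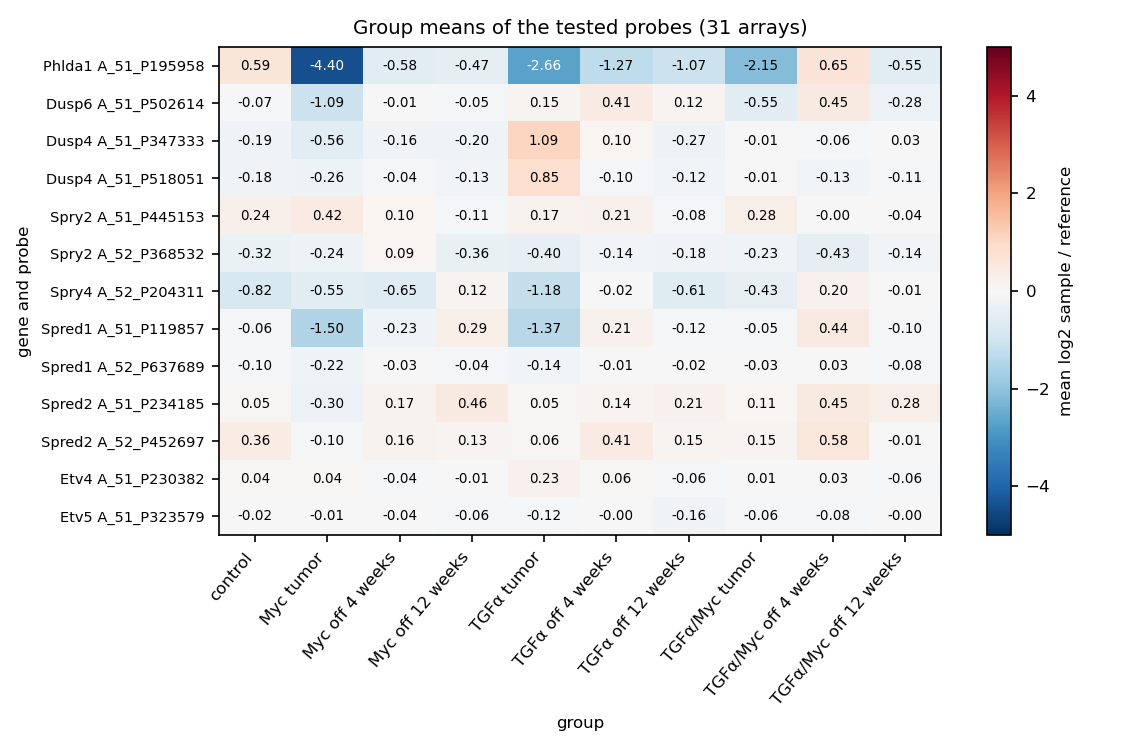
Mean log2 ratio of sample over reference (colour scale) for the 13 tested member probes (vertical) in the 10 groups (horizontal), fitted arrays only. The cell furthest from 0 is Phlda1 in the Myc tumors (-4.40), followed by the library labelled TGFα tumor (-2.66) and the TGFα/Myc tumors (-2.15) for the same gene.

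In tumors with both transgenes Phlda1 was the member that changed against control. Its log2 ratios there were -2.82, -1.09 and -2.55, all below the 3 controls. The difference was -2.74 (SE 0.53, 95% interval -3.83 to -1.66, limma adjusted p = 0.00726). It was 1 of 13 member probes called, where 1.59% of all probes were called and 0.793% were called lower. The Phlda1 call was lost in 5 of 26 alternatives. Those include leaving out TGFα/Myc tumor replicate 1 (-2.41, adjusted p = 0.0803), median centring (-3.26, adjusted p = 0.076), scan day as a block and only these groups in the fit (adjusted p = 0.21). Within scan day 7, which held 2 of these tumors and 1 control, Phlda1 differed by -2.11. Dusp6 stood at -1.45, -0.19 and -0.00 in these tumors, so 1 of 3 lay below all controls, and its difference was -0.48 (SE 0.39, 95% interval -1.29 to 0.32).

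With both transgenes off for 4 weeks Phlda1 stood at 1.54, 1.07 and -0.67 and rose by 2.80 (SE 0.53, limma adjusted p = 0.00238), with no overlap. With only these groups in the fit the adjusted p was 0.18. It was again 1 of 13 called, against 6.78% of all probes and 3.63% in that direction. Off for 12 weeks Phlda1 stood at -0.57, -0.51 and -0.55, also above all 3 tumors, and differed by 1.61 (SE 0.53, adjusted p = 0.099). None of the 13 member probes passed in limma at 12 weeks, where 3.57% of all probes were called. One of the 13 (Phlda1) had an unadjusted p under 0.05, as did 14.1% of all probes. Without TGFα/Myc tumor replicate 2, the tumor at -1.09, the 12-week Phlda1 difference was 2.14 with an adjusted p of 0.0364, and 3 probes passed on the scanner software's own ratio. Dusp6 in livers off for 4 weeks stood at 0.73, 0.99 and -0.38 and differed from the tumors by 1.00 (SE 0.39, adjusted p = 0.138). Without replicate 3 of those livers, the array that stood apart from its group, Dusp6 differed by 1.41 (adjusted p = 0.036) and Spred2 A_52_P452697 by 0.67 (adjusted p = 0.0295).

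The TGFα/Myc tumors differed from the Myc tumors in 3 member probes, all higher, where 23.9% of all probes were called and 10.8% were called higher. Phlda1 was higher by 2.25 (SE 0.44, limma adjusted p = 0.00102), and its 3 TGFα/Myc tumors were all above the 7 Myc tumors. The Phlda1 call was lost in 4 of 29 alternatives: median centring (1.33, adjusted p = 0.108), the sample channel alone on 34 or 31 arrays (1.04 in both) and the scan day block (3.37). That block leaves Myc tumor replicate 1 alone on the Myc tumor side. Spred1 A_51_P119857 stood at -0.54, 0.48 and -0.07 in the TGFα/Myc tumors and was higher by 1.46 (SE 0.30, adjusted p = 0.00153), again without overlap. That Spred1 call was lost in 2 of 29 alternatives: median centring (0.90, adjusted p = 0.233) and the scan day block (0.18). Such non-overlap was found for 2 member probes and for 6.13% of all probes. Dusp4 A_51_P347333 was higher by 0.55 (SE 0.19, adjusted p = 0.0413) with overlapping groups, a call lost in 19 of 29 alternatives. Those include leaving out Myc tumor replicate 2, 3, 4 or 7 or any 1 of the 3 TGFα/Myc tumors, with Dusp4 differences of 0.47 to 0.58. Without TGFα/Myc tumor replicate 1 Dusp6 also passed (0.99, adjusted p = 0.0432). In the same comparison 6 of 10 hepatocyte probes (median 1.12) and 9 of 12 liver endothelium probes (0.70) were higher, and 6 of 11 dividing cell probes (-1.25) and 3 of 3 neutrophil probes (-3.17) were lower, and their part in these differences was not tested.

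Whether members responded differently to the loss of Myc alone and of both transgenes was tested as a difference of responses. At 12 weeks Spred1 A_51_P119857 rose more with Myc alone, by 1.85 (SE 0.47, limma adjusted p = 0.0349), as 1 of 13 member probes where 2.65% of all probes were called and 1.32% in that direction. That Spred1 call was lost in 12 of 34 alternatives, among them without any 1 of 7 single arrays (1.59 to 2.01): Myc tumor replicate 2, each of the 3 livers off Myc for 12 weeks, TGFα/Myc tumor replicate 2, and TGFα/Myc off 12 weeks replicates 2 and 3. It was also lost for Spred1 A_51_P119857 with slide as a random block (1.89, limma adjusted p = 0.0866), median centring (1.62) or all 34 arrays (1.85, adjusted p = 0.0739). Scan day (0.49) or scanner (2.25) as a block lost it too, with Myc tumor replicate 1 alone on the Myc tumor side. For Phlda1 the 12-week difference was 2.33 (SE 0.69, adjusted p = 0.0669), and it passed without Myc tumor replicate 5 (2.43, adjusted p = 0.0284) or TGFα/Myc tumor replicate 1 (2.66, adjusted p = 0.0397). At 4 weeks 0 of 13 member probes passed in limma, where 13.6% of all probes were called. None of the 13 had an unadjusted p under 0.05, where 28.1% of all probes did. The 4-week difference was 1.02 for Phlda1 (SE 0.69).

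The TGFα comparisons rest on the single library labelled TGFα tumor, which is assumed to vary like the other groups. In it Phlda1 stood at -2.66, below all controls, and Dusp4 stood at 1.09 (A_51_P347333) and 0.85 (A_51_P518051), above every other fitted array. Against control 3 of 13 member probes passed where 11.1% of all probes were called. One was lower (4.26% of all probes) and 2 were higher (6.8%). Phlda1 differed by -3.25 (SE 0.74, limma adjusted p = 0.00866), Dusp4 A_51_P347333 by 1.28 (SE 0.33, adjusted p = 0.0151) and Dusp4 A_51_P518051 by 1.03 (SE 0.24, adjusted p = 0.00915). At A_51_P518051 the 3 controls were not well above background. Set against the lowest signal well above background, the array labelled TGFα tumor was at least 1.85-fold higher in the sample channel. Spred1 A_51_P119857 stood at -1.37, with a difference of -1.31 (adjusted p = 0.0947) that passed without control replicate 2 (-1.69, adjusted p = 0.0354). In this library 9 of 11 dividing cell probes (median 3.23) and 2 of 3 neutrophil probes (4.53) were higher than in control, and 0 of 10 hepatocyte probes passed (median -0.91). Their part in the member differences was not tested.

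Against this library 1 member probe was lower with TGFα off for 4 weeks, where 3.91% of all probes were called and 2.65% were called lower. After 12 weeks 2 were lower, where 12.9% were called and 8.01% were called lower. All were Dusp4 probes. Dusp4 A_51_P518051 fell by 0.95 at 4 weeks (limma adjusted p = 0.0373), a call lost without either array of that group (-0.88, adjusted p = 0.154, without replicate 2, and -1.01, adjusted p = 0.108, without replicate 3). At 12 weeks Dusp4 fell by 1.36 at A_51_P347333 (adjusted p = 0.00996) and by 0.97 at A_51_P518051 (adjusted p = 0.0114). As bounds on the signal of A_51_P518051, the tumor was at least 1.74-fold above the livers off for 4 weeks and at least 1.62-fold above those off for 12 weeks. The 2 arrays labelled TGFα tumor that were kept apart had Dusp4 A_51_P347333 at 0.10 and -0.36 and Phlda1 at 0.03 and -0.13. Their reference channel had another profile, so these ratios cannot be set beside those of replicate 1. With all 34 arrays in the fit, 0 member probes passed in any of these 3 TGFα comparisons. That fit mixes ratios over unlike references, so it cannot decide on the calls above.

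With a transgene off, no member probe differed from control by limma in any of the 6 comparisons, in which 0.00317%, 0.139% and 0.609% (Myc 4 and 12 weeks, TGFα 4 weeks) and 0.0222%, 5.72% and 0.0159% (TGFα 12 weeks, TGFα/Myc 4 and 12 weeks) of all probes were called. Each had 1 of 13 member probes with an unadjusted limma p under 0.05. The share of all probes under it was 4.25%, 12.0% and 11.8% (Myc 4 and 12 weeks, TGFα 4 weeks) and 8.07%, 19.5% and 9.54% (TGFα 12 weeks, TGFα/Myc 4 and 12 weeks). Phlda1 was below every control array in 5 of the 6 groups, with differences of -1.17 and -1.06 for Myc at 4 and 12 weeks, -1.86 and -1.66 for TGFα and -1.14 for TGFα/Myc at 12 weeks. The share of all probes below every control in those 5 comparisons was 8.78%, 10.6%, 18.6%, 9.27% and 14%, in the order of that list. The smallest limma adjusted p of these for Phlda1 was 0.152, so none of these differences passed. The 6 comparisons use the same control arrays and are not independent of each other. In TGFα/Myc livers at 4 weeks Phlda1 differed from control by 0.06, with arrays both above and below the controls. Spry4 differed by 0.94 in livers off Myc for 12 weeks and by 1.01 in TGFα/Myc livers off for 4 weeks, against controls that themselves ran from -1.53 to 0.36. Without control replicate 1 the latter was 1.60 (limma adjusted p = 0.0268). In all 6 comparisons the controls had 0 weeks on doxycycline and the livers off a transgene had 4 or 12. Time on the drug and transgene history thus differ together, and their separate parts were not tested.

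Ordered by group mean, Phlda1 was highest in TGFα/Myc livers off for 4 weeks (0.65, SD 1.16, n = 3) and in control (0.59, SD 0.38, n = 3), which overlapped. The other groups off a transgene followed from -0.47 (Myc off 12 weeks) to -1.27 (TGFα off 4 weeks, n = 2). Control did not overlap Myc off 12 weeks, while these groups overlapped one another in order, down to the TGFα/Myc tumors. The TGFα/Myc tumors (-2.15, SD 0.93, n = 3) overlapped the lone library labelled TGFα tumor (-2.66), and the Myc tumors were lowest (-4.40, SD 0.65, n = 7) with a gap above them.

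Markers of cell type and of dividing cells moved in the same comparisons. In the Myc tumors 7 of 10 hepatocyte probes were lower than in control (median -1.62) and 10 of 11 probes of dividing cells were higher (median 2.62). Also higher were 3 of 3 neutrophil probes (2.74), and 5 of 12 liver endothelium probes were lower (-0.56). With Myc off for 4 weeks 9 of 10 hepatocyte probes were higher and 10 of 11 dividing cell probes lower than in the tumors. Per array the mean hepatocyte log2 ratio was -3.11 to -1.19 in the Myc tumors and -0.18 to -0.07 in control, and the dividing cell mean was 0.06 (Myc tumor replicate 5) to 3.15 against -0.29 to -0.08. In the TGFα/Myc tumors, where Phlda1 also fell, 0 of 10 hepatocyte probes and 3 of 11 dividing cell probes were called, with array means of -1.12 to -0.06 and 0.90 to 1.80. Whether these markers have a part in the members' changes was not tested, and in bulk tissue fewer cells of a type cannot be told apart from less RNA per cell.

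**Figure D4:**
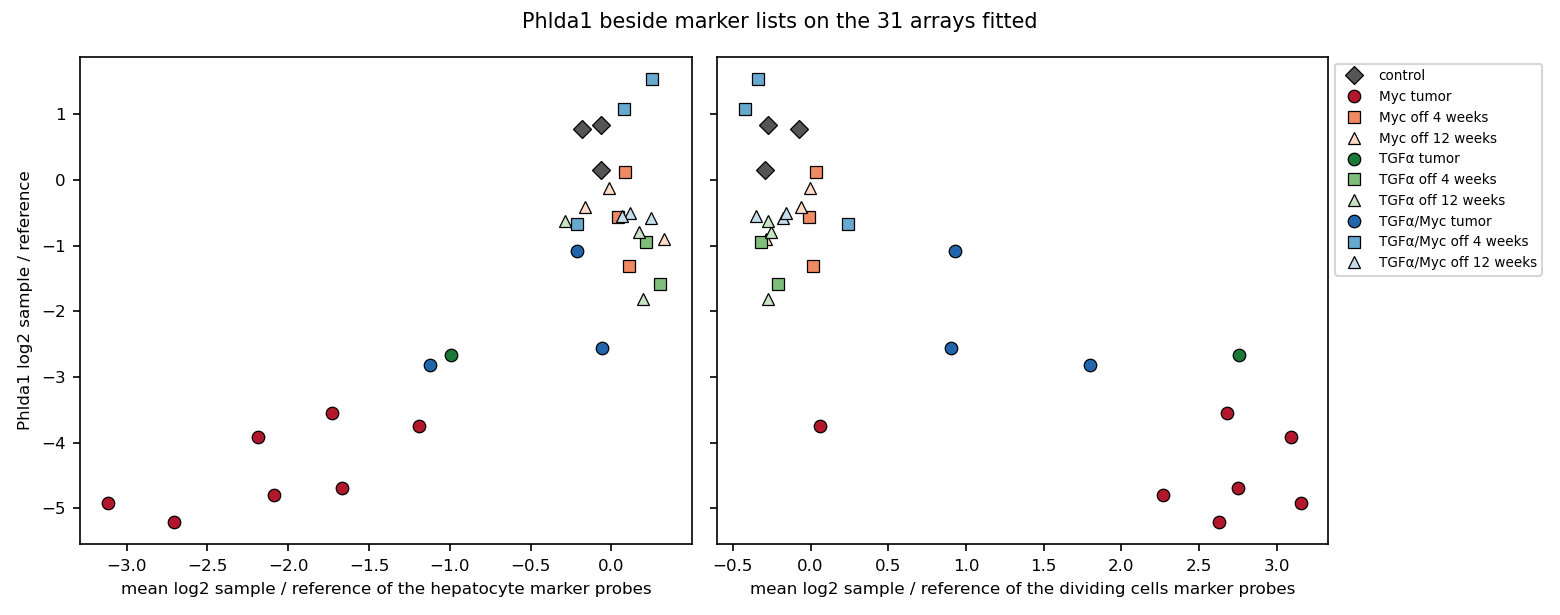
Phlda1 log2 ratio (y axis) against the mean log2 ratio of hepatocyte marker probes and of dividing cell marker probes (x axes) on the 31 fitted arrays, coloured by group. Myc tumors lie lowest for Phlda1 over a hepatocyte mean of -3.11 to -1.19. Myc tumor replicate 5 has a dividing cell mean of 0.06 and Phlda1 at -3.75. What part the markers have in the Phlda1 values was not tested.

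Of the doubted arrays, Myc tumor replicate 5 had Phlda1 at -3.75. Leaving out this array, TGFα/Myc tumor 3, TGFα/Myc off 4 weeks 3 and the library labelled TGFα tumor gave 5, 6 and 7 member probes called in the 3 Myc comparisons in place of 4, 3 and 5. In the TGFα/Myc groups it added Dusp6 to Phlda1 among the genes higher at 4 weeks (1.68, SE 0.42, limma adjusted p = 0.0121).

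The wider pathway was read with lists of its cascade, of relatives of the members and of other ERK output genes, beside 19.3% of all probes called higher and 16.1% called lower in the Myc tumors. Of 66 cascade probes (28 genes), 14 were higher and 17 lower in the Myc tumors than in control (median 0.01). Egfr A_51_P392242, the receptor for TGFα, fell by 4.29 (SE 0.61, limma adjusted p = 1.63e-05) and Met A_51_P103929, the HGF receptor, fell by 1.66, while the GTPase Nras rose by 1.18 and the ERK-activated kinase Rps6ka3 by 0.85. With Myc off for 4 weeks Egfr rose by 4.35 and Nras fell by 1.40. Of 26 probes of relatives (16 genes), 10 were higher and 3 lower (median 0.12): Phlda2 A_51_P450623 rose by 2.99, Phlda3 by 2.24 and the phosphatase Dusp9 by 2.23, while Elk4, an ETS factor, fell by 0.76. Phlda2 and Phlda3, of the same family as Phlda1, were thus higher where Phlda1 was lower. Of 17 probes of other output genes (12 genes), 4 were higher and 4 lower: the urokinase receptor Plaur rose by 1.54, and cyclin D1 (Ccnd1), Epha2 and Il17rd fell by 2.74, 1.10 and 0.58.

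In the TGFα/Myc tumors 0 of 66 cascade probes, 1 of 26 probes of relatives (Phlda3, higher by 3.09, limma adjusted p = 0.00272) and 0 of 17 output probes passed against control. In the library labelled TGFα tumor 5 of 17 output probes were higher and 0 lower (median 0.08), where 6.8% of all probes were called higher and 4.26% lower. The smallest p among them was that of Fos (4.50, limma adjusted p = 2.31e-05), followed by Hbegf (1.91), Ier3 (1.95) and Egr1 (4.44). Of the relatives 6 of 26 probes were higher and 0 lower, including Dusp2 (2.30) and Dusp8 (1.59). Of the cascade 2 were higher and 3 lower.

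Across the 31 fitted arrays, which share 1 reference and include all groups, the member probes most alike were Spred1 A_51_P119857 and Spred2 A_51_P234185 (Pearson r = 0.86), followed by the 2 Dusp4 probes (0.80) and Spred1 with Phlda1 (0.80). Phlda1 and Dusp6 had r = 0.70. Outside the members, the genes most like Phlda1 were the liver transcription factors Onecut2 (r = 0.93) and Onecut1 (0.91), with Ppm1l (0.91), Prr16 (0.91) and the organic anion transporter Slco1a1 (0.91). For Dusp6 they were Id2, Bnip3l, Sdc4, Csrnp1 and Gpc4 (0.78 to 0.79), and for Spry4 Pitpnc1, Diap2, P2ry12, Rbbp6 and Tbc1d8 (0.76 to 0.79). These correlations describe the 31 arrays and carry no test.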

How the data were processed

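The files are scanner output of Agilent 4x44K arrays, 1 per sample. Per the file headers they were made with Agilent Feature Extraction 9.1.3.1 or 10.7.3.1, and the deposited intensity columns give the mean and background brightness of each spot in both channels. The deposited log10 ratio is processed Cy5 over Cy3, already background-subtracted and dye-normalized by that software. The authors also deposited a table of log2 values, and all of its 43379 rows matched a spot on the array. Its values correlated with the same array's Cy5 over Cy3 (r of 0.329 to 0.927, column medians -0.37 to 0.45, centring unknown). The submitters' processing notes name limma, with no version.

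Intensities were corrected with normexp (offset 50), normalized within each array by loess with control spots at weight 0, turned to log2 of Cy3 over Cy5 and averaged over spots of a probe, with outlier spots missing. A probe was kept where its Cy3 signal was well above background on 3 or more fitted arrays, and the 3 arrays that stood apart were left out. One coefficient per group was fitted on 31 arrays with limma 3.58.1 in R 4.3.3, with Benjamini-Hochberg adjustment over all kept probes and a threshold of 0.05, in 16 comparisons of 2 groups and 2 differences of responses. Each p-value so adjusted counts the arrays as independent animals, as the labels describe them, although their number limits the precision. Arrays of a group often shared a slide or scan day, which the reported fit does not model. All TGFα livers off for 12 weeks were on slide 8 and all TGFα/Myc livers off for 12 weeks on slide 7. All livers off Myc for 4 weeks were scanned on day 1. The within-slide correlation was 0.444. Gene names are those of the array design, with 24844 of 41174 probes matched to RefSeq by accession. The fit was tested on simulated data for Myc tumor against control (31288 probes), where 74% of probes changed by a log2 of 1 and 96% of those changed by 2 were recovered, with a false share of 2.86%. The simulated noise was independent between arrays, so these shares do not cover effects of slide, scan day or scanner.

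Alternatives were the scanner software's own ratio, the deposited log2 table, median centring, Aquantile scaling between arrays, which leaves each ratio as it is and gave the reported values, the sample channel alone, other filters, all 34 arrays, slide (random, within-slide correlation 0.444), scan day, scanner or replicate number as a block, an intensity trend, 1 probe per gene, only the groups compared and each array left out. Leaving out 4 doubted arrays together and the sample channel on 31 arrays were chosen after seeing the data. For a called probe, fits within a scan day or slide that held both groups were counted as well. Text names every member probe, from each list up to 4 genes with the smallest p, and the 5 genes most like Phlda1, Dusp6 and Spry4. Members and lists were chosen with earlier results of these data known. Groups do not overlap where every fitted array of one lies above every array of the other. Marker lists of cholangiocytes, Kupffer cells and macrophages, stellate cells and lymphocytes were also read: in Myc tumor against control 0 higher and 4 lower of 11, 2 and 3 of 10, 2 and 4 of 12, and 0 and 2 of 8 probes were called.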

Additional observations from a re-analysis of the deposited data

Results flagged for a closer look

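Spred1 A_51_P119857 in Myc tumor replicate 5 lay far from the other 6 tumors of its group, at -0.68 against -1.90 to -1.38. Its gap to the nearest tumor was 0.578 of the group's range, past the critical value of Dixon's test for 7 samples. Myc tumors were the only group large enough for this look, which covered 13 member probes, and chance marks about 1 in 20 groups. The same array had the lowest Myc ratio of the 7 tumors at probe A_52_P108346 (1.04) and the highest at A_51_P102096 (0.43), and the lowest mean of dividing cell markers (0.06). What part these have in the Spred1 value was not tested.

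The response of Spred1 A_51_P119857 differed between genotypes at 12 weeks by a test of the difference itself: the rise after Myc alone exceeded that after both transgenes by 1.85 on the log2 scale (limma adjusted p = 0.0349). The call was lost in 12 of 34 alternatives, among them slide, scan day or scanner as a block. All 3 livers off Myc lay above the 7 Myc tumors, while the TGFα/Myc livers (0.48, -0.41 and -0.38) overlapped their tumors (-0.54, 0.48 and -0.07).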

How the results depend on the processing

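The counts of alternatives include Aquantile scaling, which cannot change a ratio. For called probes they also include the fits within a scan day or slide, in which a side can hold 1 array. In comparisons with the Myc tumors, scan day or scanner as a block leaves Myc tumor replicate 1 alone on the tumor side. No called member value changed sign in any alternative, and 520 called values kept their side of the threshold while 124 no longer passed. Of the counts of member probes called, 367 stayed within 1.5 times and 80 moved. The cause was not tested. Counts below are of 13 member probes unless the filter changed.

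For Myc tumor against control (4 called) the count was 1 with median centring, 1 with a scan day block and 2 with a scanner block. For Myc off 4 weeks against tumor (3) it was 5 on the scanner software's own ratio, 5 in the sample channel alone (34 or 31 arrays) and 6 without the 4 doubted arrays. For Myc off 12 weeks (5) it was 3 with median centring and 0 with scan day. For TGFα/Myc tumor against control (1) it was 0 with median centring, scan day or only the groups compared. For TGFα/Myc off 4 weeks (1) it was 4 on the software's ratio, 4 in the deposited log2 table, 2 in the sample channel (34 or 31 arrays), 2 without the doubted arrays and 0 with only the groups compared. For TGFα/Myc off 12 weeks (0) it was 3 on the software's ratio, 3 in the deposited table, 2 in the sample channel (34 or 31 arrays) and 1 with the stricter filter. For TGFα/Myc against Myc tumors (3) it was 0 with median centring or scan day.

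For the library labelled TGFα tumor against control (3) the count was 1 on the software's ratio, the deposited table, scan day and the sample channel on 31 arrays, and 0 with all 34 arrays. For TGFα off 4 weeks (1) it was 0 on the software's ratio, median centring, the sample channel (34 or 31 arrays), the deposited table, the stricter filter, all 34 arrays and slide as a random block, and 4 with only the groups compared. For TGFα off 12 weeks (2) it was 1 on the software's ratio, the deposited table, the stricter filter and the sample channel on 31 arrays, and 0 with all 34 arrays or scan day. For TGFα off 4 weeks against control (0) it was 1 in the sample channel on 34 arrays. The difference of responses at 4 weeks (0) had 1 on the software's ratio, 3 in the sample channel (34 or 31 arrays) and 2 in the deposited table. At 12 weeks (1) it had 2 with the stricter filter or without the doubted arrays, and 0 with median centring, all 34 arrays, slide, scan day or scanner.

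Leaving out 1 array gave 2 to 5 calls for Myc tumor against control (2 without control replicate 1, 5 without control replicate 2), 2 to 6 for Myc off 4 weeks (6 without Myc tumor replicate 5) and 3 to 7 for Myc off 12 weeks (7 without Myc tumor replicate 5). It gave 0 to 1 for TGFα/Myc tumor, 1 to 3 and 0 to 1 for TGFα/Myc off 4 and 12 weeks, 3 to 4 for TGFα tumor, 0 to 0 and 2 to 2 for TGFα off 4 and 12 weeks and 2 to 4 for TGFα/Myc against Myc tumors. Against control it gave 0 to 1 for TGFα/Myc off 4 weeks and 0 to 0 for the other groups off, and for the differences of responses 0 to 0 at 4 weeks and 0 to 2 at 12 weeks. TGFα tumor replicate 1 could not be left out.

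Arrays with the same replicate number were not treated as pairs in the reported fit. Their deviations correlated at a mean r of 0.0364 (100 pairs, 34 over 0.1), and those of other arrays at -0.0124 (292 pairs, 53 over 0.1). Whether the numbers mark a pairing is not settled by these values. With the replicate block the counts were 6 for Myc tumor, 7 and 9 for Myc off 4 and 12 weeks, 5 for TGFα/Myc against Myc tumors and 1 for the 4-week difference of responses; the other comparisons kept their counts.

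Over all probes, median centring called 4413, 3048 and 3901 probes in the 3 Myc comparisons in place of 11168, 9587 and 9277, with 72%, 23% and 63% higher in place of 55%, 43% and 47%. Under it the median difference of all probes was -0.109 in Myc off 4 weeks against tumor, 0.104 in TGFα/Myc off 4 weeks, -0.183 in TGFα/Myc against Myc tumors and 0.241 in Myc off 12 weeks against control, beside values within 0.01 of 0 in the reported fit. In the deposited table it was -0.237, 0.383, 0.137 and -0.262 in the TGFα/Myc comparisons with control, tumor (4 and 12 weeks) and Myc tumors. Scan day as a block could not be fitted for TGFα and TGFα/Myc off 4 weeks (against their tumors, against control, or in the 4-week difference of responses). Signal near background limits Etv4, Etv5, Spry4 and the dimmer Dusp4, Spred1 and Spred2 probes.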
